A study of Rattus norvegicus with 32 samples.

Results

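The genes described here encode dystrophin (Dmd), dystroglycan (Dag1), the sarcoglycans α, β and δ (Sgca, Sgcb and Sgcd), junctophilin 2 (Jph2), bridging integrator 1 (Bin1), caveolin 3 (Cav3) and the A-kinase anchoring protein 6 (Akap6). They were taken as every probe, controls aside, to which either annotation version of the array files gives one of these symbols. This rule found 9 genes of 34912 names and 19 probes of 45598, and 18 of the 19 probes passed the filter on dim probes in both sexes. Left ventricles came from young adult Wistar rats, 20 h after sham surgery or after cecal ligation and puncture (CLP), a surgical model of abdominal sepsis. In each sex there were 5 rats in the sham group, 5 in the CLP group and 6 in the CLP plus landiolol group, which was infused with landiolol, which blocks β1-adrenergic receptors, whereas the others received saline. All animals had buprenorphine and no antibiotics, and every heart was perfused ex vivo before it was frozen. Every rat had its own 1-colour array, so a rat and an array are the same replicate. No group carried a genetic change, and the samples were chosen for RNA quality by the authors.

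In heart muscle, dystrophin ties the actin skeleton below the cell membrane to dystroglycan, which binds laminin outside the cell, and the sarcoglycans hold this complex together in the membrane. T-tubules are inward folds of that membrane that carry the action potential to the calcium release channels. Bin1 curves the membrane into tubules, Cav3 is the muscle form of the caveolar coat protein, and Jph2 holds the tubule close to the sarcoplasmic reticulum. Akap6, also called mAKAP, anchors protein kinase A and phosphatases at the nuclear envelope and the reticulum.

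On each array, 34920 to 43155 of the 58717 spots that are not controls were well above background, and 0 spots were saturated. The arrays lay on 4 slides, 2 per sex with rats of all 3 groups on each, so that sex cannot be told apart from slide. In females, row 1 of the slides held all 5 sham arrays, and row 2 held all 6 of the CLP plus landiolol group. All 8 cardiomyocyte markers (Myh6, Actc1, Tnnt2, Tnni3, Myl2, Myl3, Mb and Pln) were well above background on 32 of 32 arrays. The fast skeletal myosins Myh1 and Myh2 were above it on 0 arrays. Levels below are quantile-normalised log2 intensities, normalised in each sex on its own, and are set against each other only within a probe and a sex.

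The probes are 60 bases long, and their place in the transcript decides which product they measure. Of the 2 probes for Jph2, the dimmer one (A_64_P029407, chromosome 3 from 154223265 to 154223324 on the minus strand, build rn4 as the file headers state) covers the end of the reading frame. It is shown because it gives a second reading of the gene that changed most. Capitals mark the stop codon, behind which 7 bases remain, and the codons before it encode the hydrophobic tail that anchors the protein in the reticulum.

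Jph2 A_64_P029407: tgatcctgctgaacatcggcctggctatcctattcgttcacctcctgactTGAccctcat

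Dmd had 8 probes, which the files place on different transcripts of the gene. The 2 shown here are from the rod region (A_44_P515995, chromosome X from 70132194 to 70132253) and from the 3′ part (A_42_P524536, chromosome X from 71670996 to 71671055). Dp71, the short transcript from a promoter near the end of the gene, lacks the rod region. The full-length transcript extends past the second probe, since the files place A_44_P1116160 on it further downstream. The second probe therefore cannot be read as Dp71 alone. The 2 are printed because the files annotate them to different transcripts.

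Dmd A_44_P515995: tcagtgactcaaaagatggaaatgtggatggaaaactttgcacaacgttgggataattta

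Dmd A_42_P524536: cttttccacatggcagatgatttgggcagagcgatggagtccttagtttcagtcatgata

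After CLP, 3 of the 9 genes fell in males, namely Jph2, Akap6 and Cav3, and 2 fell in females, Jph2 and Akap6, whereas 0 rose in either sex. These calls are those of limma, which fits linear models with moderated variances, here to the 16 arrays of a sex, at a false discovery rate (FDR, Benjamini-Hochberg over all probes kept) of 1%, and each gene is counted by its brightest probe. Of all 25866 probes kept in males 7.81% were called and 3.94% were called lower. Among the 25395 probes of females these shares were 3.63% and 1.82%. The median log2 fold change of the 9 genes was -0.36 in males and -0.23 in females, against 0.01 and -0.01 over all probes. In each sex the sham and CLP groups did not overlap for 3 of the genes, Jph2, Akap6 and Cav3, and for 12.3% of all probes in males and 8.32% in females. With 5 or 6 arrays in a group, their number limits the precision of each value.

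**Figure D1:**
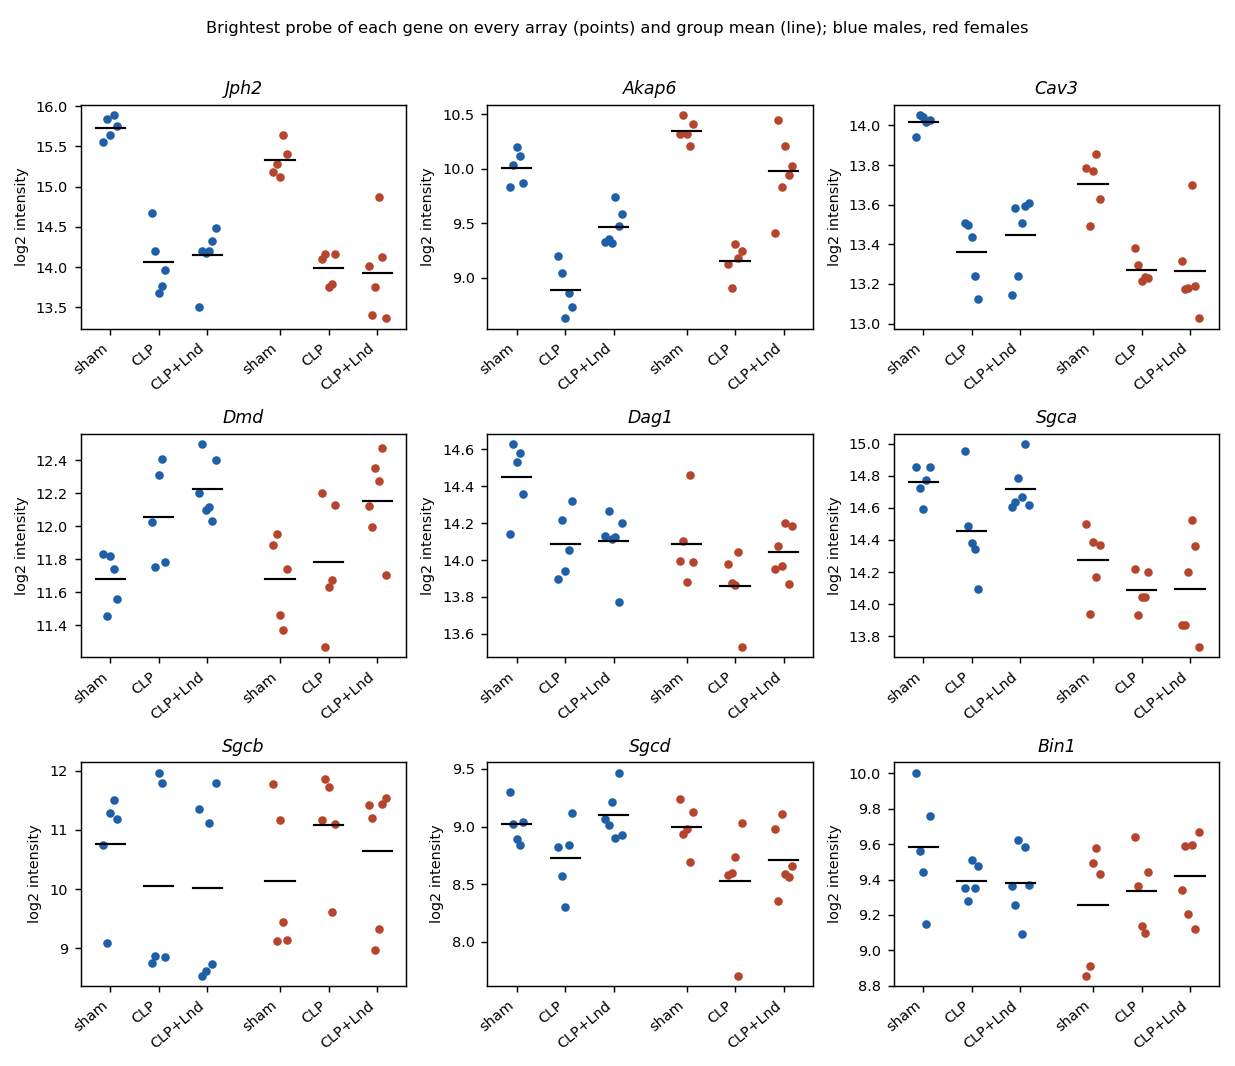
Quantile-normalised log2 intensity (vertical axis) of the brightest probe of each of the 9 genes on every array, with points for arrays, lines for group means, blue for males and red for females; CLP+Lnd is the CLP plus landiolol group. Sham arrays lie above all CLP arrays for Jph2, Akap6 and Cav3 in both sexes, and Sgcb splits into a lower and an upper band in every group.

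Jph2 had the largest fall of the 9 genes in both sexes. Its brightest probe (A_44_P1157220, chromosome 3 from 154220950 to 154221009) was at 15.56, 15.84, 15.64, 15.89 and 15.75 in the 5 male sham rats and at 14.68, 14.20, 13.68, 13.77 and 13.96 in the 5 male CLP rats. In the male CLP plus landiolol group its level ran from 13.51 over a median of 14.20 to 14.48. All septic males were therefore below all sham males, with or without landiolol, while the septic groups overlapped. The probe lies on 10 spots of each array, whose log2 values had a standard deviation (SD) of 0.029 to 0.075 within an array (median 0.0385), so the spread between rats was much wider than that between spots.

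The log2 fold change of Jph2 after CLP was -1.68 in males, a level 3.19-fold lower (standard error 0.19; adjusted p = 5.24e-05 by limma). In females the levels were 15.19, 15.29, 15.11, 15.64 and 15.41 in the sham group and 14.10, 14.17, 13.76, 13.79 and 14.16 in the CLP group. This was a change of -1.33, or 2.52-fold lower, with a standard error of 0.23 (adjusted p = 0.00221). The dimmer probe at the stop codon fell as far in males, with a change of -1.68 (adjusted p = 0.00153, standard error 0.30) and groups that did not overlap. In females its change of -1.18 (standard error 0.44) did not pass (adjusted p = 0.109), and 1 CLP rat, at 9.27, lay among the sham rats, which started at 8.47. On the 2 slides taken apart, the difference of the brightest probe was -1.51 and -1.89 in males and -1.26 and -1.46 in females.

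Jph2 was not called different between the septic groups. The difference between the CLP plus landiolol and CLP groups was 0.09 in males (95% interval -0.31 to 0.49, adjusted p = 0.84, limma) and -0.07 in females (-0.56 to 0.41, adjusted p = 0.961). On the male slides taken apart it was -0.23 and 0.47, and on the female slides -0.02 and -0.12. Against the sham group, Jph2 was lower after landiolol by -1.59 in males (standard error 0.19, adjusted p = 9.24e-05) and by -1.41 in females (standard error 0.22, adjusted p = 0.00086). In females the call depended on whether slide row was a term, while the size of the change moved little. When slide row was a term, the change after CLP was -1.32 with an adjusted p of 0.0145 and that of the CLP plus landiolol group against sham was -1.37 with an adjusted p of 0.236. All female sham arrays were in row 1, so row and group cannot be fully told apart there. The 3 female CLP rats in row 1 were at 14.10, 14.17 and 13.76, against 15.11 to 15.64 in the female sham rats. Over all alternatives fitted with limma the adjusted p ran from 0.000679 to 0.0145 for CLP against sham and from 6.23e-05 to 0.236 for landiolol against sham.

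Cav3 (A_44_P125539, chromosome 4 from 148309840 to 148309899) fell less than Jph2 but had the smallest spread of the 9 genes, with a pooled SD within groups of 0.16. In males it was at 13.94, 14.05, 14.04, 14.02 and 14.03 in the sham group and at 13.51, 13.50, 13.44, 13.24 and 13.12 in the CLP group. The change was -0.65, or 1.57-fold lower (standard error 0.12, adjusted p = 0.00134, limma). In females the sham levels were 13.79, 13.49, 13.77, 13.86 and 13.63, and those of the CLP group were 13.38, 13.29, 13.22, 13.23 and 13.23. All female CLP rats were lower than all female sham rats, yet the change of -0.43 (standard error 0.13) did not reach an FDR of 1% (adjusted p = 0.0463). Within the slides the difference was -0.51 and -0.85 in males and -0.46 and -0.40 in females.

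After landiolol, Cav3 ran from 13.14 over a median of 13.54 to 13.61 in males and from 13.03 over 13.19 to 13.70 in females. It thus overlapped with the CLP group in both sexes. The difference from the CLP group was 0.08 in males (95% interval -0.16 to 0.32, adjusted p = 0.739, limma) and -0.01 in females (-0.28 to 0.26, adjusted p = 0.996). The male slides gave -0.16 and 0.39. Against sham it was lower by -0.57 in males (standard error 0.11, adjusted p = 0.00421). This did not pass when replicate 2, 3, 4 or 5 of the sham group or replicate 3 of the landiolol-treated rats was left out, and the adjusted p was 0.00147 to 0.0131 over all alternatives fitted with limma. In females the difference of -0.44 (standard error 0.12) did not pass (adjusted p = 0.0287).

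Bin1 (A_44_P1030669, chromosome 18 from 24872469 to 24872528) was measured by a single probe, and its groups overlapped in all comparisons. In males it was at 9.58 ± 0.32 in the sham group (SD, n = 5), 9.39 ± 0.10 in the CLP group (n = 5) and 9.38 ± 0.20 in the CLP plus landiolol group (n = 6). In females the corresponding means were 9.25 ± 0.34, 9.34 ± 0.23 and 9.42 ± 0.23. The change after CLP was -0.19 in males (95% interval -0.51 to 0.13) and 0.08 in females (-0.30 to 0.46), so falls as large as that of Jph2 lie outside both intervals. The adjusted p-values of limma were 0.446 and 0.841.

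**Figure D2:**
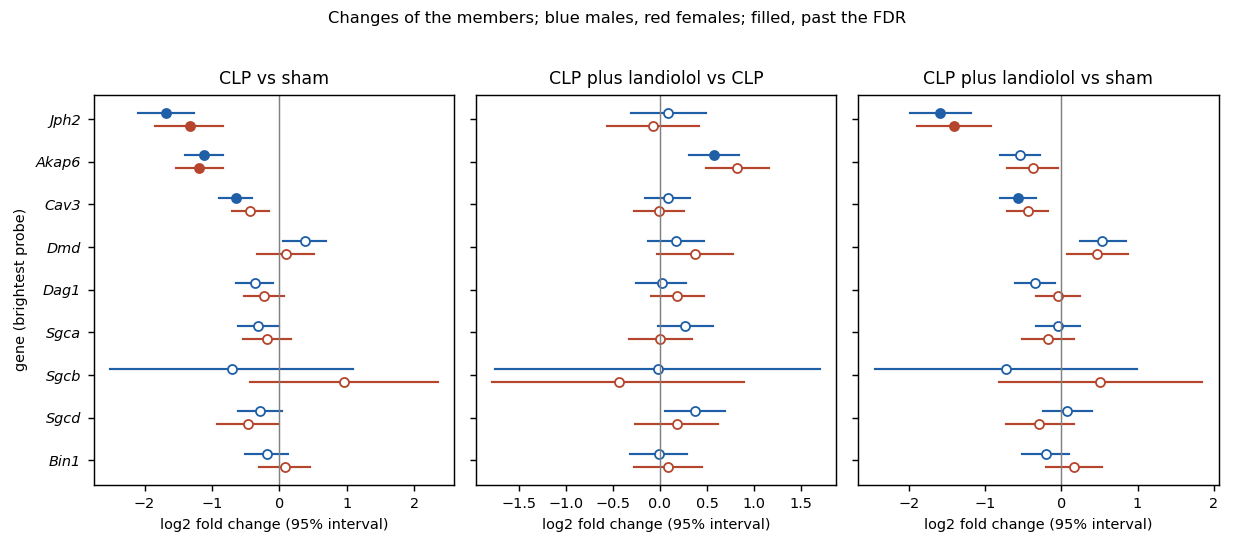
Log2 fold change (horizontal axis, points) with 95% interval (lines) of the brightest probe of each gene in the 3 comparisons, blue for males and red for females; filled points passed the FDR of 1% (CLP vs sham and CLP plus landiolol vs sham) or 5% (CLP plus landiolol vs CLP). Jph2 and Akap6 were called lower after CLP in both sexes, Cav3 in males, and Akap6 was the only one of the 9 called between the CLP plus landiolol and CLP groups, in males.

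Akap6 fell after CLP in both sexes. Its mean was higher after landiolol than after CLP alone in both, a difference that was called only in males. In males its probe (A_42_P589812, chromosome 6 from 73353606 to 73353665) was at 9.84, 10.03, 10.20, 10.11 and 9.87 in the sham group and at 9.20, 9.04, 8.63, 8.87 and 8.73 in the CLP group. In the male CLP plus landiolol group it ran from 9.32 over a median of 9.41 to 9.74. The 3 male groups did not overlap, with the landiolol group between the other two. The change after CLP was -1.12, or 2.17-fold lower (standard error 0.13, adjusted p = 5e-05, limma).

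In females Akap6 was at 10.32, 10.49, 10.32, 10.20 and 10.41 in the sham group and at 9.13, 8.91, 9.31, 9.19 and 9.24 in the CLP group. The change was -1.19, or 2.29-fold lower (standard error 0.16, adjusted p = 0.000353, limma). In the female CLP plus landiolol group the levels ran from 9.41 over a median of 9.99 to 10.44. All 6 of these rats were above all CLP rats, and some of them lay among the sham rats. Within the slides the change after CLP was -0.98 and -1.26 in males and -1.30 and -1.12 in females.

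Between the CLP plus landiolol and CLP groups, 1 of the 9 genes was called in males and 0 in females at an FDR of 5%, where 1.56% of all probes were called in males and 0.0945% in females. The gene was Akap6. It was higher after landiolol by 0.57 in males, or 1.49-fold (standard error 0.12, adjusted p = 0.0295, limma), and by 0.82 in females, or 1.77-fold (standard error 0.16, adjusted p = 0.0596). The female difference did not pass. At an unadjusted p under 0.05, 2372 female probes passed, Akap6 among them, and SAM, a test based on permuted arrays, also called 0 of the 9 genes in females. Akap6 was the 1 gene in each sex whose CLP plus landiolol and CLP groups did not overlap, as was the case for 2.27% of all probes in males and 1.15% in females. Within the slides the difference was 0.38 and 0.80 in males and 0.68 and 1 in females. The CLP rats enter both of these comparisons, so a low level in them adds to the fall and to the rise alike.

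The call of Akap6 in males was close to its threshold. Leaving out replicate 3, 4 or 5 of the CLP rats or replicate 2, 4 or 6 of those given landiolol ended it, as did a fit to these groups alone. Over all alternatives the difference was 0.51 to 0.65 and the adjusted p of limma 0.00797 to 0.0933. In females it was gained under 6 of 26 alternatives, with an adjusted p of 0.0275 to 0.445. Against the sham group, Akap6 stayed lower after landiolol by -0.54 in males (standard error 0.12), where the groups did not overlap but the adjusted p of 0.0107 was just above the FDR of 1%. Over all alternatives it was 0.00125 to 0.0345. In females the difference was -0.37 (standard error 0.16, adjusted p = 0.135).

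Against the sham group, 2 of the 9 genes were called in males after landiolol, Jph2 and Cav3, and 1 in females, Jph2, all of them lower. The share of all probes called in this comparison was 4.15% in males and 5.25% in females. The median log2 fold change of the 9 genes was -0.35 in males and -0.18 in females, against 0 over all probes in both.

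The difference between the male and the female change was tested as an interaction term, after all 32 arrays had been normalised as 1 set. For none of the 9 genes did it pass an FDR of 5%, and neither did any of the 24769 probes kept in both sexes, so that 0% were called for CLP against sham and 0% for landiolol against CLP alone (limma). At an unadjusted p under 0.05, 867 and 1217 probes passed, with 0 of the 9 genes among them. For Jph2 after CLP the male minus the female change was -0.37 (95% interval -1 to 0.26), for Cav3 it was -0.25 (-0.58 to 0.08) and for Akap6 0.11 (-0.31 to 0.52). For Akap6 after landiolol it was -0.27 (-0.66 to 0.13). All 4 intervals hold 0, and they are too wide to show that the sexes changed alike.

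Dmd was not called in any comparison. Its brightest probe, in the 3′ part (A_42_P524536), was at 11.83, 11.46, 11.82, 11.74 and 11.56 in male sham rats and at 12.03, 11.75, 12.31, 12.41 and 11.78 in male CLP rats. After landiolol it ran from 12.04 over a median of 12.16 to 12.50 in males, above all sham males. The change after CLP was 0.38 (standard error 0.15, adjusted p = 0.0973, limma), and the difference of the CLP plus landiolol group from sham was 0.54 (standard error 0.14, adjusted p = 0.0216). Neither passed the FDR of 1%, although the latter did so with array weights (adjusted p = 0.00485, with 0.00485 to 0.0655 over all alternatives) and with SAM. In females the corresponding values were 0.10 (adjusted p = 0.83) and 0.47 (adjusted p = 0.116), and all groups overlapped.

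The other probes along Dmd moved little. The 4 probes that the files place on the full-length transcript upstream of the 3′ part changed after CLP by -0.10 to 0.16 in males and by -0.11 to -0.02 in females. Another probe of the 3′ part (A_64_P303640) changed by 0.17 and 0.02, and the probe at the 3′ end (A_44_P1116160) by -0.06 and 0. None of these 6 probes was called in any of the 3 comparisons, and their lowest adjusted p was 0.168, for A_64_P303640 after landiolol against sham in males. The 5′-most probe (A_43_P16358, chromosome X from 69258646 to 69258705) was well above background on 0 of 32 arrays and was not tested. Values of different probes cannot be set against each other as levels, so how much of the signal comes from each transcript was not tested.

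**Figure D3:**
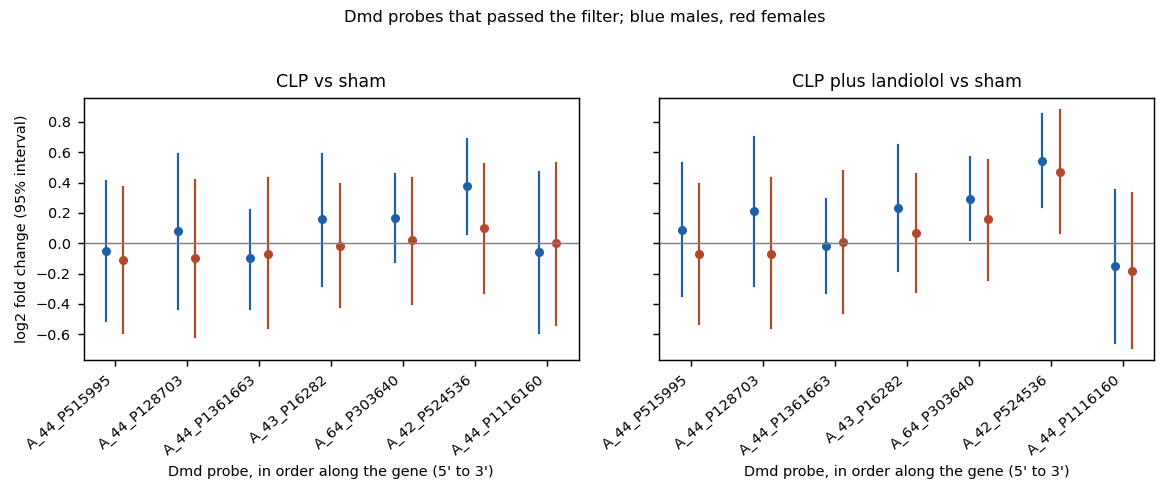
Log2 fold change (vertical axis, points) with 95% interval (lines) for the 7 Dmd probes that passed the filter, in their order along the gene on the horizontal axis, blue for males and red for females. The intervals lie above 0 for A_42_P524536 in males after CLP (0.38) and in both sexes for CLP plus landiolol vs sham (0.54 and 0.47), and for A_64_P303640 in males for the latter (0.29), while all others hold 0.

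Dag1, the laminin receptor of the complex, was lower after CLP without passing the FDR. Its brightest probe (A_44_P509845, chromosome 8 from 113470938 to 113470997) went from 14.45 ± 0.20 (SD, n = 5) to 14.09 ± 0.18 (n = 5) in males and was at 14.10 ± 0.17 after landiolol (n = 6). The change was -0.36 (standard error 0.13, adjusted p = 0.0655, limma) after CLP and -0.35 (adjusted p = 0.086) in the CLP plus landiolol group against sham. A second probe (A_44_P438150) changed by -0.28 in males (adjusted p = 0.0629) and the 5′-most one (A_44_P271678) by -0.05. In females the 3 probes changed by -0.23, 0.06 and -0.06, and all groups overlapped in both sexes.

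Of the sarcoglycans, 0 of 3 were called in any comparison. Sgca (A_43_P16949, chromosome 10 from 83647348 to 83647407) was at 14.76 ± 0.11 in the male sham group (SD, n = 5), 14.45 ± 0.32 in the male CLP group (n = 5) and 14.72 ± 0.15 after landiolol (n = 6). Its change after CLP was -0.31 in males (adjusted p = 0.158, limma) and -0.18 in females (adjusted p = 0.554). Sgcd (A_44_P338109, chromosome 10 from 32085312 to 32086784, a span wider than the probe) changed by -0.29 in males (adjusted p = 0.238) and -0.47 in females (adjusted p = 0.207). The female CLP rats ran from 7.71 over a median of 8.60 to 9.03, against 8.69 over 8.98 to 9.24 in the sham group. After landiolol the male difference of Sgcd from the CLP group was 0.37 (adjusted p = 0.258).

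Sgcb (A_42_P646922, chromosome 14 from 36974627 to 36974686) was unlike the other members in that its rats fell into a lower and an upper band in every group. It was at 10.74, 9.09, 11.28, 11.51 and 11.18 in the male sham group and at 8.75, 8.87, 11.96, 11.80 and 8.86 in the male CLP group. In females it was at 11.78, 9.12, 11.17, 9.45 and 9.15 in the sham group and at 11.16, 11.85, 11.72, 9.61 and 11.09 in the CLP group. Within a sex, the widest gap between arrays lay from 9.09 to 10.74 in males, with 7 arrays below it and 9 above, and from 9.61 to 11.09 in females, with 6 below and 10 above. The lower band held 1 of 5 sham, 3 of 5 CLP and 3 of 6 CLP plus landiolol rats in males, and 3 of 5, 1 of 5 and 2 of 6 in females. The probe was well above background on all 32 arrays.

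The bands set the spread of Sgcb. Its pooled SD within groups was 1.29, whereas that of the other 8 genes was 0.16 to 0.35 and the median over 24664 probes was 0.36, and 99.5% of those probes had a smaller one. This pattern was singled out after the values were seen. The change after CLP was accordingly uncertain, -0.71 in males (95% interval -2.51 to 1.09) and 0.96 in females (-0.44 to 2.35), with adjusted p-values of 0.648 and 0.417 (limma).

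Of the genes that fell, Jph2 and Cav3 also varied together among rats of a group. Over the 32 arrays, with the mean of each sex removed, the level of Jph2 had a Pearson correlation of 0.93 with that of Cav3, 0.67 with Akap6 and 0.51 with Dag1. With the mean of each group removed these values were 0.73, 0.16 and 0.06. The values with the group means kept hold the difference between sham and septic rats, and for Akap6 and Dag1 little was left without it. With the group means removed, Sgca followed Jph2 (0.58) and Cav3 (0.54). The arrays share their normalisation, and the values are descriptions. For the genes outside the list, only the mean of each sex was removed, so their correlations also hold the difference between the groups. Among 12826 genes, those most like a member over the 32 arrays were Mrpl12 for Cav3 (0.949), Gpsm1 for Jph2 (0.939), Sh3bp5 for Akap6 (0.877), Kpna2 for Dag1 (0.863), Ecsit for Sgca (0.846), Zxdc for Dmd (0.817), Bst2 for Sgcd (0.758), Radil for Bin1 (0.758) and Asxl2 for Sgcb (0.601). Mrpl12 is a protein of the mitochondrial ribosome and Gpsm1 a modulator of G proteins.

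Because Jph2, Cav3 and Akap6 all fell after CLP in males, the last 120 bases before their annotated start are shown, from RefSeq on assembly GRCr8, whose coordinates differ from those of the array files. Capitals mark the E-box motif CANNTG, to which basic helix-loop-helix factors such as those of muscle can bind. The motif, which reads the same way on both strands, is present in the 250 bases before the start in 65.5% of 33469 promoters. RefSeq promoters were found for 8 of the 9 genes.

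Jph2, chr3:172477922-172478041, minus strand: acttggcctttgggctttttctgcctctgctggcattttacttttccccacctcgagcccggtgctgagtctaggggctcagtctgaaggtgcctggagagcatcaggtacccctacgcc

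Cav3, chr4:147137873-147137992, plus strand: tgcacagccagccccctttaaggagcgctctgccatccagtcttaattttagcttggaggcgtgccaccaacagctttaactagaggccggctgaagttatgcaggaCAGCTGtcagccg

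Akap6, chr6:75919393-75919512, plus strand: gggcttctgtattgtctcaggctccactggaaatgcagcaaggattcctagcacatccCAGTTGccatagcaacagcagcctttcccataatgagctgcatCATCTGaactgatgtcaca

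In the 250 bases, the E-box had 0 matches for Jph2, 1 for Cav3 and 2 for Akap6. The full cAMP response element TGACGTCA, which 1.59% of promoters hold, had 0 matches in any of the 3, and so had the GC box GGGCGG (30.5% of promoters, both strands) and the TATAAA motif (12.9%, both strands). A missing match says only that these letters are not in the window.

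Among 71 related genes that could be tested, of 75 listed in 6 groups, 7 were called after CLP in males, 6 of them lower, and 3 in females, all lower. These counts stand against 7.81% and 3.63% of all probes called, and the shares are near that background. Of the other dystrophin complex genes, 3 of 10 fell in males and 1 of 10 in females. Sntb1 encodes a syntrophin, an adaptor that binds signalling proteins to dystrophin. It changed by -1.36 in males (standard error 0.32, adjusted p = 0.0097, limma) and by -1.60 in females (standard error 0.26, adjusted p = 0.00131). Its probe was dim, well above background on 3 of 5 female CLP arrays and on 4 of 6 arrays of the male CLP plus landiolol group, so these low levels are partly background. In males ε-sarcoglycan (Sgce) also changed, by -0.51 (adjusted p = 0.0051). The list had a median of -0.34 in males and -0.29 in females.

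Of the other T-tubule and dyad genes, 1 of 14 was called in each sex, the junctin gene Asph, with -0.64 in males (adjusted p = 0.00434, limma) and -0.79 in females (adjusted p = 0.00193). Of the other A-kinase anchors and Akap6 partners, 3 of 14 were called in males and 1 in females. Akap1, which anchors the kinase at mitochondria, fell by 1.16 on the log2 scale in males (adjusted p = 0.00206) and by 1.01 in females (adjusted p = 0.0035). In males Mef2a, a transcription factor of muscle genes, also fell, by 0.68 (adjusted p = 0.00113), whereas Akap13 rose by 0.61 (adjusted p = 0.00187). Neither was called in females. There the mean of Akap13 was 12.51 in the sham group and 13.03 after CLP, and that of Mef2a was 10.87 and 10.75. Among the caveolar, costameric and dystroglycan glycosylation genes, 0 of 8, 0 of 13 and 0 of 12 were called after CLP in either sex, although the caveolar list had a median of -0.41 in males and -0.18 in females.

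**Figure D4:**
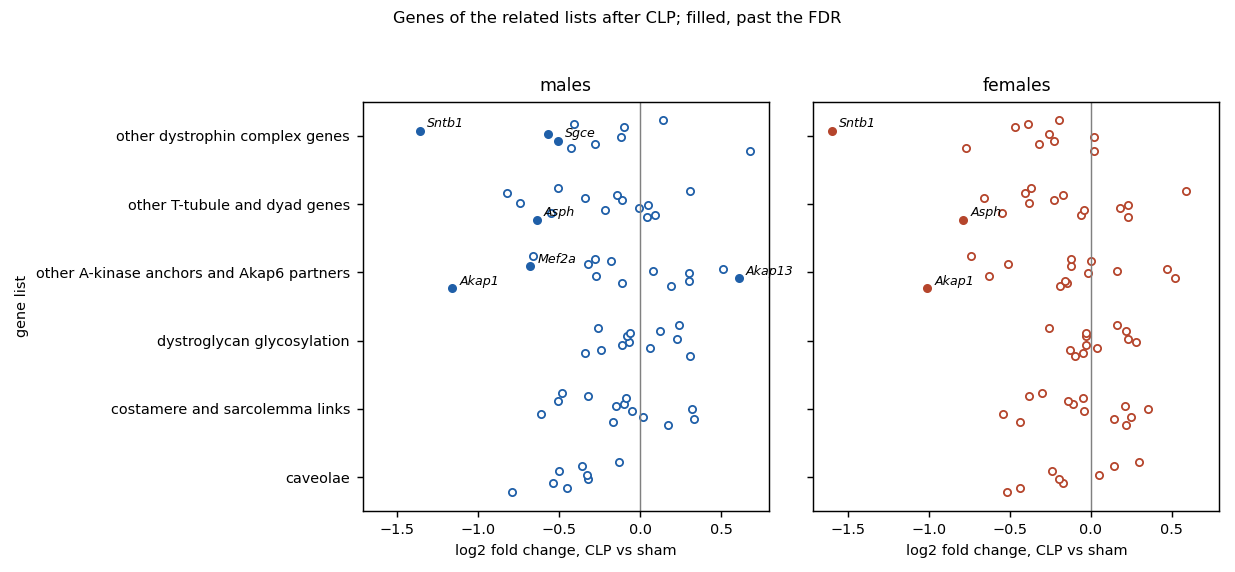
Log2 fold change after CLP (horizontal axis) of each tested gene of the 6 related lists (vertical axis) by its brightest probe, males on the left and females on the right; filled points passed an FDR of 1%, and those described in the text are named. Sntb1, Akap1 and Asph were called lower in both sexes, and Akap13 was the only gene called higher, in males.

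After landiolol, 1 of the 71 related genes was called different from the CLP group in males and 0 in females, where 1.56% and 0.0945% of all probes were called. Ahnak, a large protein below the cell membrane, was higher by 0.52 in males (standard error 0.12, adjusted p = 0.0418, limma). In females, where Ahnak was not called, its mean was 15.01 in the CLP group and 15.61 after landiolol. Against sham it was higher by 0.69 in males (adjusted p = 0.0019) and by 0.81 in females (adjusted p = 0.00229). In that comparison Sntb1 (-1.51) and B4gat1 (-0.49), an enzyme of dystroglycan glycosylation, were lower in males, with adjusted p-values of 0.00571 and 0.00637. Akap9 (0.80, adjusted p = 0.0079) was higher in females. In males, where Akap9 was not called, its mean was 11.36 in the sham group and 11.86 after landiolol. The female sham arrays were all in slide row 1 and those of the landiolol group all in row 2. Row and group thus cannot be fully told apart in the female values against sham.

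The samples were whole ventricle, so fewer cells of a type and less RNA per cell cannot be told apart. Markers of cardiomyocytes, the cells in which Jph2, Cav3 and Akap6 are mainly known, were called in 0 of 8 cases in every comparison, with medians of -0.04 in males and 0.02 in females after CLP. The cardiac actin Actc1 was nevertheless at -0.69 in males (adjusted p = 0.0308, limma), where the groups did not overlap, and at -0.72 in females (adjusted p = 0.0952), and at -1.06 in females after landiolol against sham (adjusted p = 0.0105). The mean level of the cardiomyocyte list was 18.08 to 18.42 in male sham rats and 18.06 to 18.36 in male CLP rats. Quantile normalisation gives every array the same set of values, which can limit how far such bright probes move. Whether the share of cardiomyocytes changed was therefore not tested. Of the fibroblast markers, 4 of 7 (Col1a1, Col1a2, Col3a1 and Lum) fell in males after CLP (median of the list -1.34). In females 0 of 7 were called (median -0.95). Dcn was instead higher, by 0.87 in males (adjusted p = 0.0467, limma) and by 0.77 in females (adjusted p = 0.0752), without passing the FDR. Postn, also not called, was at -0.07 in males and 1.46 in females. The mean level of the fibroblast list was 11.64 to 12.37 in male sham, 10.34 to 11.37 in male CLP, 10.99 to 11.61 in female sham and 9.78 to 11.66 in female CLP rats.

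Of the markers of macrophages and monocytes, 3 of 7 rose after CLP in each sex and 4 were not called, among them Csf1r at -0.07 in males and -0.01 in females. The list had mean levels of 9.20 to 9.79 in male sham and 10.01 to 10.90 in male CLP rats, and 9.19 to 9.85 and 9.75 to 10.49 in females. Among the 5 neutrophil markers, 2 could be tested and rose in males, 1 of them also in females, while Mmp8 was well above background on 0 arrays. They passed the filter through the septic groups, since 0 to 1 of the 5 markers were well above background on a male sham array and 0 to 2 on a female one, so the sham values are mostly background. Mean levels of these 5 were 2.59 to 3.09 and 4.18 to 5.32 in male sham and CLP rats, and 2.66 to 3.65 and 4.22 to 5.18 in females. Of the other lists after CLP, 1 of 6 endothelial markers, Emcn, fell in each sex, whereas Kdr and Pecam1 were higher in both without being called. Of the smooth muscle markers 1 of 5 fell in males, and 0 of 3 atrial markers were called. Of 4 skeletal muscle markers tested, 1 rose and 1 fell in males and 1 rose in females. Whether these cells had a part in the falls of Jph2, Cav3 and Akap6 was not tested.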

How the data were processed

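The authors deposited, for each of 32 arrays, the intensity of every spot from Agilent Feature Extraction 10.5 (background-subtracted and detrended; build rn4 per the file headers), and a table of log2, quantile-normalised values, used here as an alternative. From the scanner files, control and outlier spots were dropped, log2 was taken of the processed intensities, repeated spots were averaged, and each sex (16 arrays) was quantile-normalised on its own. A probe was kept if, in 1 group or more, 80% of arrays or more had it well above background. R (version 4.3.3), the data.table package (version 1.17.8) and limma (version 3.58.1) (lmFit, eBayes without trend) were used, with Benjamini-Hochberg adjustment over all probes kept and an FDR of 1% (against sham) or 5%. The paper used SAM, run here with 100 drawn permutations as an alternative. The limma script was tested on simulated data.

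Genes named beyond the 9 are those of the related lists with at most the 3 smallest adjusted p-values per list and comparison, and the closest gene by correlation. Some genes this rule names are not reported here. Members and lists were chosen with earlier results of these data known. Replicate numbers only name arrays. Further alternatives were normexp (offset 50), the raw mean intensity, 75th percentile scaling, other filters, a trended prior, a fit to the compared groups alone, array weights, terms for slide or slide row, joint normalisation, any probe of a gene, exchanged FDR levels and leaving out each array.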

Additional observations from a re-analysis of the deposited data

Results flagged for a closer look

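Of 108 groups of values tested over the 18 probes, 3 held an array whose gap to its nearest neighbour was wide against the range of its group, where chance flags about 1 in 20 groups. Jph2 (A_44_P1157220) was at 13.51 in replicate 1 of the male CLP plus landiolol group, with the others between 14.17 and 14.48. Dag1 (A_44_P509845) was at 13.77 in replicate 5 of that group, with the others between 14.12 and 14.27. The Dmd probe A_64_P303640 was at 7.96 in replicate 1 of the female CLP plus landiolol group, with the others between 7.28 and 7.52.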

How the results depend on the processing

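The count of members called after CLP in males, 3, was the same under every alternative run. In females it was 2 and was 1 when slide row was a term and 3 at an FDR of 5%. In males the count of 1 for landiolol against CLP alone was 0 when only the groups compared were fitted and at an FDR of 1%, and 0 to 1 without single arrays. In females the count of 0 was 1 with normexp, the authors' table, the trended prior, array weights or the slide as a term, and 0 to 1 without single arrays. For CLP plus landiolol vs sham in males the count of 2 was 4 with array weights, an FDR of 5% or SAM, and 1 to 3 without single arrays. It was 3, with Akap6 added, under normexp, the raw mean intensity, the authors' table, the filter over all arrays of the sex or the trended prior. In females the count of 1 was 2 with the authors' table, array weights or an FDR of 5%, 0 with the row of the slide, and 1 to 2 without single arrays. The counts of 0 for differences between the sexes stayed at 0 under every alternative run, and no called member changed direction. Some differences that were not called changed sign, most widely Sgcb for landiolol against CLP alone, which ran from -0.38 to 0.46 in males and from -0.81 to 0.29 in females. The 7, 1 and 4 related genes called in males ranged from 4 to 15, 0 to 7 and 1 to 7, and the 3, 0 and 3 of females from 1 to 5, 0 to 1 and 0 to 9. The cause of these shifts was not tested. No paired analysis was possible because the labels give no replicate numbers that groups share.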
